A study of Mus musculus with 8 samples.

Results

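The genes described here encode proteins of the axonemal central pair apparatus, and were chosen by symbol as Hydin, Spef1, Spef2, Spag6, Spag6l, Spag16 and Spag17. All 7 were found among the 19906 genes of the deposited testis table, and all 7 passed the filter on low counts. Each library held testis RNA of 1 mouse aged 2 months, with 4 mice of the genotype Tmem232-/- and 4 of the genotype Tmem232+/+. Tmem232-/- mice carry, in every cell of the body, a deletion of an internal fragment of Tmem232 made with CRISPR-Cas9 in fertilised C57BL/6 oocytes, and Tmem232+/+ mice are wild-type at this gene. Whether the mice of a genotype were littermates is not given in the sources used here. Tmem232 encodes a transmembrane protein, and the comparison asks how testis transcripts differ without it.

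The axoneme of a sperm flagellum or motile cilium has a ring of doublet microtubules around a pair of single microtubules, C1 and C2. Projections on this central pair touch the heads of the radial spokes and pass on signals that set the activity of the dynein arms on the doublets. HYDIN is a very large protein of a C2 projection, SPAG6, SPAG17 and SPEF2 belong to C1 and its projections, SPAG16 lies between the microtubules, and SPEF1 binds and bundles microtubules and is needed to form the pair. In the testis, the axoneme is assembled in spermatids, and loss of central pair proteins is known from mice and patients with immotile sperm.

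Tmem232 (Entrez ID 381107), the targeted gene, did not verify the labels. Levels are given as counts per 1000000 counts after TMM scaling (CPM). Replicates 1 to 4 labelled Tmem232-/- had 148, 132, 123 and 122 CPM of this gene, and their counterparts labelled Tmem232+/+ had 111, 106, 108 and 109.9 CPM. All libraries labelled Tmem232-/- were thus above all others (log2 fold change 0.27, adjusted p = 0.034 in edgeR). A count per gene cannot separate reads of the deleted exons from the rest, and each direction below rests on the labels. Total counts lay between 15428421 and 16350871 per library.

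Spag6 was the member that differed between the genotypes, with a level 1.82-fold higher in the libraries labelled Tmem232-/-. Its close paralog Spag6l, the most abundant member, had nearly equal levels. Spef2, a C1 gene, was just outside the threshold, and Hydin, Spef1, Spag16 and Spag17 did not pass it. With the threshold at 0.05 for the p of the quasi-likelihood test in edgeR, adjusted after Benjamini and Hochberg, 1 of 7 members was higher and 0 were lower. Of the 15787 tested genes, 10.3% were higher, 1.46% were lower and 11.8% differed in either direction. The number of lower genes, 230, depended on the processing, with 415 by library size alone, 131 with DESeq2 size factors and 71 without the filter, while the number of higher genes, 1633, became 1561, 1702 and 1824. With FPKM and a pseudocount of 1 there were 466 lower genes. When 1 library was left out, the lower genes numbered from 37, in the absence of Tmem232+/+ replicate 1, to 356, in that of Tmem232-/- replicate 4, so their share is a loose background. At an unadjusted p under 0.05, 2 members were higher and 0 lower, and DESeq2 and limma-voom likewise called 0 members lower. The log2 fold changes of the members ran from -0.14 to 0.86, with a median of 0.17 (0.08 to 0.27 without 1 library) and 5 of 7 above 0, against a median of -0.054 over all tested genes. The count of 1 in 7 lies near the background share, so that it is not a result about the members as a group.

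**Figure D1:**
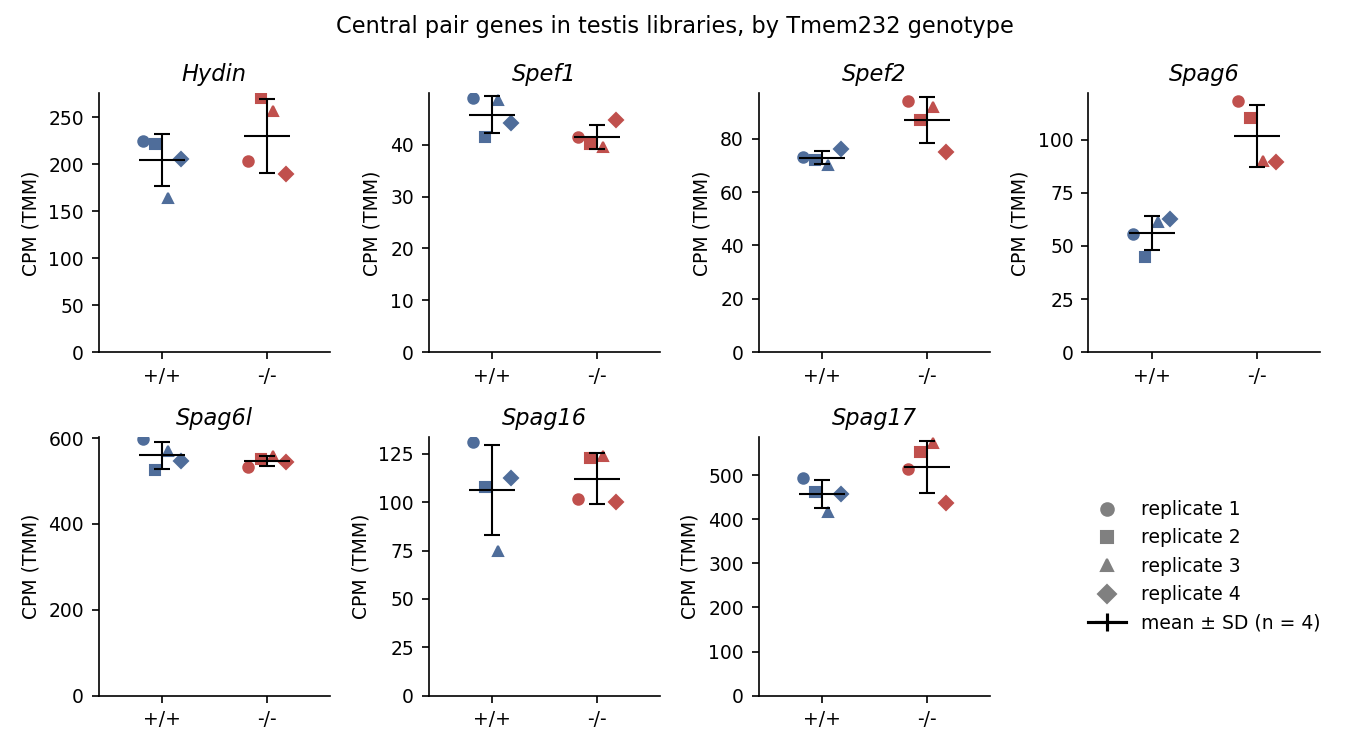
Level of each central pair gene in CPM after TMM scaling (vertical axes, each from 0), with 1 point per library and the mean ± SD of 4 libraries per genotype. The Spag6 panel is the one in which the genotypes do not overlap, with 89.3 to 118 CPM in the libraries labelled Tmem232-/- and 44.8 to 62.6 CPM in the others.

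The promoters of several members share a short motif and are printed for that reason, without any bearing of the present counts on it. The promoters came from RefSeq on GRCm38.p6, from 250 bases before to 50 after a start site, and all 7 members matched. The letters GGTTGC form an arm of the X-box, the site of the RFX transcription factors, which are known for switching on genes of motile cilia. On either strand they occurred in 5 of 7 members, namely all but Spag16 and Spag17, and in 12.3% of 32851 promoters of the same length. The motifs were chosen after the sequences had been read, so these shares are a description. In the runs below, written 5′ to 3′ on the strand of the gene, capitals mark GGTTGC.
Hydin, chr8:110266943-110266972, plus strand: gccacactctgcGGTTGCtgtggcaacaga
Spef1, chr2:131174830-131174859, minus strand: gcaagtagcgacGGTTGCtatggtttcgga
Spef2, chr15:9748844-9748873, minus strand: tccttagcaactGGTTGCcctgggcgacgg
Spag6, chr2:18698972-18699001, plus strand: ccgattccgactGGTTGCccaggagtgtgg
Spag6l, chr16:16829314-16829343, minus strand: tccGGTTGCtgtcGGTTGCcctggagacgc

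A further form of the X-box arm, GTTGCC, which can share 5 bases with GGTTGC, was found on either strand in 5 of 7 members (all but Spef1 and Spag17) and in 12.5% of all promoters. The paralogs differed in another motif. The cyclic AMP response element TGACGTCA, the site through which CREM switches on spermatid genes, was present in the promoter of Spag6l, starting 9 bases before the start site, and in 1.79% of all promoters. It was absent from the windows of the other 6 members, and its core TGACG, contained in the longer motif, was found in Spag6l alone of the 7 and in 20.8% of all promoters. The run below shows it in capitals. The Spag6 window belongs to a start site inside the span that RefSeq gives for the gene, and other start sites were not searched.
Spag6l, chr16:16829354-16829383, minus strand: cactctggccgTGACGTCAcgacctttgct

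Spag6 (Entrez ID 381350; GRCm38.p6, chr2:18694011-18749746, plus strand) encodes an armadillo repeat protein of C1. Its CPM in replicates 1 to 4 labelled Tmem232-/- were 118, 110.2, 89.7 and 89.3, and those of the other genotype were 55.8, 44.8, 61.0 and 62.6. Every library labelled Tmem232-/- was above every other, with no overlap, as held for 18.7% of all tested genes. Means of 102 ± 14.5 CPM and 56.0 ± 8.07 CPM (SD, n = 4) resulted. Their log2 difference was 0.86 (standard error, SE, 0.12, adjusted p = 0.00055 in edgeR), and the 95% interval of the fold ran from 1.51 to 2.19. An exact permutation test of CPM gave a two-sided p of 0.029, the smallest that 4 libraries against 4 allow. The underlying counts ran from 739 to 1773 per library, all of them exactly whole as deposited.

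Spag6l (Entrez ID 50525; chr16:16753016-16829363, minus strand) encodes the paralog of SPAG6, also an armadillo repeat protein, and is the mouse gene whose loss causes immotile sperm. Its CPM were 533, 550.3, 559 and 544 in the replicates labelled Tmem232-/-, against 599, 526, 569 and 546 in the Tmem232+/+ replicates. The groups overlapped, and replicates 1 and 2 labelled Tmem232+/+ were the highest and the lowest of the 8 libraries. The log2 fold change was -0.03 (SE 0.063, adjusted p = 0.77 in edgeR). The 95% interval of the fold ran from 0.886 to 1.07 and ended below that of Spag6.

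Because Spag6 and Spag6l are paralogs, their transcripts were compared in sequence for stretches that reads of both genes could share. In the GENCODE transcripts of GRCm38, the coding sequences of 1530 and 1524 bases had the same base in 88.0% of 1530 aligned columns, with 178 differing bases, 6 gap columns and a longest shared run of 65 bases. The stretch of coding positions 1338 to 1427, counted from the start codon of each, is shown as an example of the bases by which reads can be told apart. Capitals mark the 19 of 90 bases that differ.
Spag6, chr2:18745482-18745571, plus strand: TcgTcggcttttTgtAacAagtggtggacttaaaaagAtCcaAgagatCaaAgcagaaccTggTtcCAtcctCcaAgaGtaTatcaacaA
Spag6l, chr16:16763055-16763144, minus strand: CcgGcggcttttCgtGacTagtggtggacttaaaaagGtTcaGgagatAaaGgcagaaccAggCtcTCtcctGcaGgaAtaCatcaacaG

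Of the 2409 windows of 50 bases in the Spag6 transcript, 18 (0.747%) also occurred in the Spag6l transcript, and of the 2359 windows of 100 bases, 0 did. How the counting treated reads that fit both genes is not given in the sources used here. The end of Spag6, with the stretch shown, also overlaps the noncoding gene Gm3363, which has no count of its own. Spag6l overlaps Rpl31-ps12, which has a count. Spag6 took 18.1%, 16.7%, 13.8% and 14.1% of the counts of both genes in replicates 1 to 4 labelled Tmem232-/-. Its share was 8.52%, 7.85%, 9.69% and 10.3% in the Tmem232+/+ replicates. The lowest share of the first group was above the highest of the second, and their 95% Wilson intervals, which cover counting error only, were 13.2% to 14.5% and 9.70% to 10.9%. The mean shares were 15.7% ± 2.07 (SD, n = 4) and 9.08% ± 1.10 (SD, n = 4; exact permutation test, two-sided p = 0.029). When the counts of both genes were summed, the log2 fold change was 0.07 (SE 0.064, 95% interval -0.07 to 0.21, adjusted p = 0.51 in edgeR), and most of this sum came from Spag6l.

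**Figure D2:**
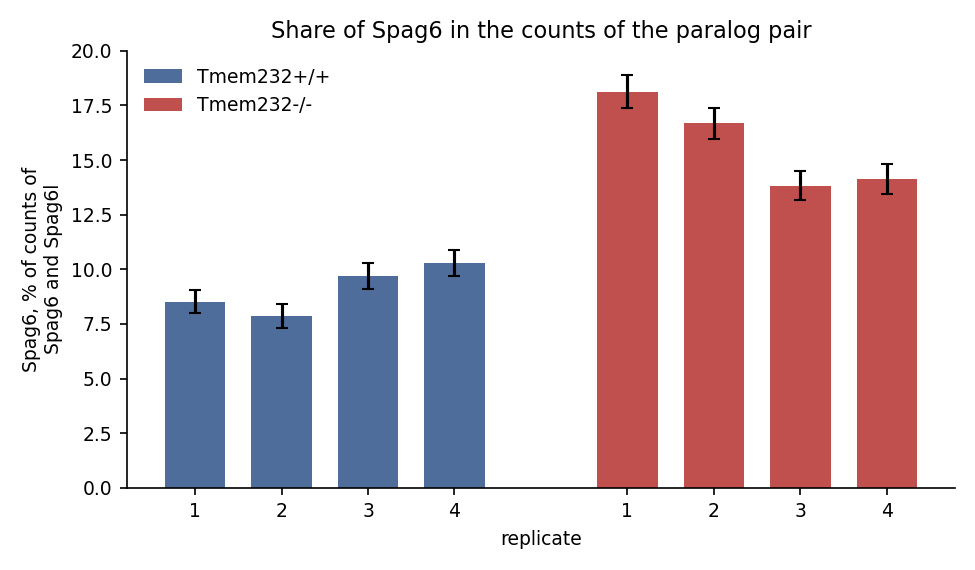
Counts of Spag6 as a percentage of the counts of Spag6 and Spag6l together (vertical axis, from 0), with 1 bar per library and 95% Wilson intervals as error bars. The 4 bars labelled Tmem232-/- stand between 13.8% and 18.1%, and the other 4 between 7.85% and 10.3%.

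In bulk tissue, fewer cells of a type and less RNA per cell cannot be told apart, and markers of late germ cells moved in the direction of Spag6. Of 12 round spermatid markers, 11 were higher and 0 lower in the libraries labelled Tmem232-/-, with a median log2 fold change of 1.08. Their summed level was 974.8 to 1248 CPM against 475 to 690 CPM. Tssk1, a testis-specific kinase, had a log2 fold change of 1.04 (SE 0.13, adjusted p = 0.00026 in edgeR), and Acr, the acrosomal protease acrosin, one of 0.20 (SE 0.079, adjusted p = 0.15). Without replicate 3 labelled Tmem232+/+, Acr stood at 0.27 with an adjusted p of 0.036 in edgeR, and all 12 markers were higher. All 12 markers of elongating spermatids were higher, with a median log2 fold change of 1.64 and summed levels of 1595 to 2516 CPM against 525 to 869 CPM. Without replicate 1 labelled Tmem232-/-, 11 of these 12 were called higher. Smcp, a protein of the mitochondrial capsule of sperm, showed 1.38 (SE 0.23, adjusted p = 0.0016 in edgeR), and Hook1, a protein of the manchette, showed the least of the list with 0.48 (SE 0.074, adjusted p = 0.00090). The highest value of the list was 4.44, for the protamine gene Prm2. Within genotypes, Spag6 and both sums had some extremes in common and others not. In the Tmem232+/+ replicates all of them were lowest in replicate 2, but Spag6 was highest in replicate 4 and both sums in replicate 3. In the replicates labelled Tmem232-/- all of them were highest in replicate 1, and both sums were lowest in replicate 3. Spag6 was nearly equal in replicates 3 and 4 of this label, at 89.7 and 89.3 CPM. In FPKM its lowest value there was that of replicate 3, with 55.1 against 56.6 in replicate 4. The part of these markers in the difference of Spag6 was not tested.

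Earlier germ cells and somatic cells gave other values. Of 12 spermatocyte markers, 2 were lower and 0 higher (median -0.10, and -0.20 to -0.05 without 1 library), and of 10 spermatogonial markers, 3 were lower and 0 higher (median -0.29). Without 1 library, 0 to 1 of the former and 1 to 3 of the latter were lower. When the library was replicate 4 labelled Tmem232-/- or replicate 1 labelled Tmem232+/+, 1 spermatocyte marker was called higher. Of 10 Sertoli cell and 10 macrophage markers, 0 passed the test in edgeR, DESeq2 or limma-voom, with 1 lower Sertoli cell marker and 0 macrophage markers at an unadjusted p under 0.05 in edgeR. Without replicate 4 labelled Tmem232-/-, 2 Sertoli cell markers were called lower. Of 7 Leydig cell markers, 0 passed in edgeR, while 5 were higher at an unadjusted p under 0.05. DESeq2 called 2 of them higher and limma-voom 1. In edgeR, 1 was called higher when replicate 1 labelled Tmem232-/-, or replicate 1 or 2 labelled Tmem232+/+, was left out. The 7 markers had a median log2 fold change of 0.46. Their summed level was 402 to 571 CPM in the libraries labelled Tmem232-/- against 254 to 436 CPM. The lowest sum, 254 CPM, was that of replicate 1 labelled Tmem232+/+, the other 3 of its group having 350.2 to 436 CPM, and without this library the median was 0.30. Multiciliated cells, as found in the efferent ducts beside the testis, use most of the same axonemal genes. Of 12 of their markers, 11 were in the table and 7 were tested, and 2 of these were higher and 0 lower, with 2 higher and 1 lower at an unadjusted p under 0.05. The log2 fold changes ran from -0.40 to 0.86. Foxj1, the transcription factor of motile cilia, showed a log2 fold change of 0.53 (adjusted p = 0.0017 in edgeR), and Deup1, which builds deuterosomes for centriole amplification, one of 0.86 (adjusted p = 0.00014). The median log2 fold change of the tested markers was 0.04 (-0.05 to 0.19 without 1 library). The summed level was 282 to 352 CPM against 195 to 250 CPM, of which Deup1 made up 148 and 81.2 CPM on average and Foxj1 71.9 and 49.7 CPM. The markers of the list differed widely in level, and the 4 that were in the table but not tested had at most 10 counts in any library. The part of these cells in the members' values was not tested.

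Spef2 (Entrez ID 320277; chr15:9578193-9748868, minus strand) encodes a protein of the C1b projection. Replicates 1 to 4 labelled Tmem232-/- had 94.2, 87.0, 92.0 and 74.9 CPM, and those labelled Tmem232+/+ had 73.0, 72.1, 70.2 and 76.1 CPM. The groups overlapped through 1 library, since replicate 4 labelled Tmem232-/- was below replicate 4 labelled Tmem232+/+. The log2 fold change was 0.26 (SE 0.078, 95% interval 0.08 to 0.43) with an adjusted p of 0.059 in edgeR, and the exact permutation test gave a two-sided p of 0.057. Leaving out either library ends the overlap. Without replicate 4 labelled Tmem232-/-, edgeR gave 0.33 and an adjusted p of 0.0047, and without replicate 4 labelled Tmem232+/+ it gave 0.28 and an adjusted p of 0.0999. DESeq2 gave 0.28 with an adjusted p of 0.018, and over all alternatives the adjusted p ran from 0.0047 to 0.19.

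Spag17 (Entrez ID 74362; chr3:99885417-100143322, plus strand) encodes a protein of the C1a projection. Its CPM in the libraries labelled Tmem232-/- were 514, 552, 572 and 437, and in the others 495, 462, 416 and 457. Replicate 4 labelled Tmem232-/- was below 3 of the 4 libraries labelled Tmem232+/+, and the other 3 were above all of them. The log2 fold change was 0.18 (SE 0.092, 95% interval -0.02 to 0.38, adjusted p = 0.25 in edgeR). Without replicate 4 labelled Tmem232-/-, it was 0.27 with an adjusted p of 0.041. The end of the gene overlaps Wdr3, and whether the counting used strand is not given in the sources used here.

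Spag16 (Entrez ID 66722; chr1:69826872-70725132, plus strand) encodes a WD repeat protein between the central microtubules. Its CPM were 102, 123, 124 and 100.3 in replicates 1 to 4 labelled Tmem232-/-, against 131, 108, 75.0 and 113 in the Tmem232+/+ replicates. The highest and the lowest value of all both came from libraries labelled Tmem232+/+. The log2 fold change was 0.07 (SE 0.15, 95% interval -0.25 to 0.40, adjusted p = 0.78 in edgeR). Without replicate 3 labelled Tmem232+/+ its direction turned, to -0.03 (adjusted p = 0.89). The table pools 8 transcripts of this gene in 1 count, so levels of single isoforms were not compared.

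Hydin (Entrez ID 244653; chr8:110266968-110610253, plus strand), with the longest transcript of the members, had 203, 270.0, 256 and 189 CPM in the libraries labelled Tmem232-/- and 225, 221, 165 and 206 CPM in the others. Both the highest and the second highest value were in replicates labelled Tmem232-/-, and the remaining values interleaved. The log2 fold change was 0.17 (SE 0.13, 95% interval -0.12 to 0.46, adjusted p = 0.45 in edgeR). It ranged from 0.08 without replicate 2 labelled Tmem232-/- to 0.27 without replicate 4 of that label, and was 0.11 without replicate 3 of either label and 0.26 without replicate 1 labelled Tmem232+/+.

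Spef1 (Entrez ID 70997; chr2:131170261-131174810, minus strand), needed to form the central pair, was the least counted member, with 624 to 785 counts per library. Its CPM were 41.5, 40.2, 39.6 and 44.7 in replicates 1 to 4 labelled Tmem232-/- and 48.9, 41.5, 48.5 and 44.2 in the others. The groups overlapped, and the log2 fold change of -0.14 was the lowest of the members (SE 0.077, 95% interval -0.31 to 0.03, adjusted p = 0.28 in edgeR). Among the Tmem232+/+ replicates, leaving out replicate 1 gave -0.07, replicate 3 gave -0.08 and replicate 2 gave -0.19. The span that the table gives for Spef1 is wider than that of RefSeq and reaches into Cenpb and 1700037H04Rik. The table also places Spef1, Spef2 and Tmem232 on the plus strand, where RefSeq has them on the minus strand. Whether their counts rest on that strand is not given in the sources used here.

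**Figure D3:**
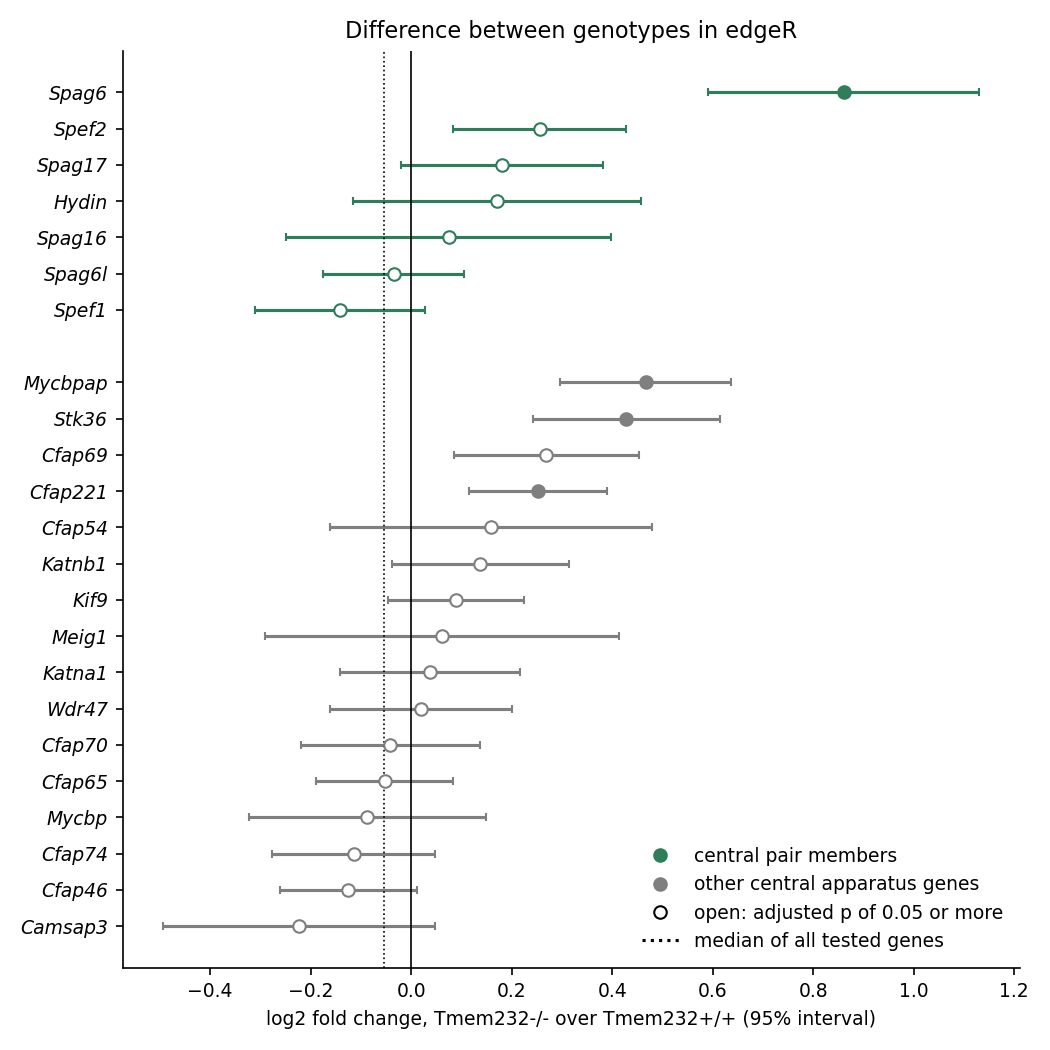
Log2 fold change between the labels, Tmem232-/- over Tmem232+/+, (horizontal axis) with its 95% interval from edgeR, for the 7 members (green) and 16 other central apparatus genes (grey), where filled points have an adjusted p under 0.05. Spag6 stands at 0.86, and the other members lie between -0.14 and 0.26.

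The levels of the members were compared per transcript length, as FPKM. In the libraries labelled Tmem232+/+ the order of mean FPKM was Spag6l with 247 ± 9.73 (SD, n = 4), Spag16 with 60.6 ± 9.94, Spag17 with 60.1 ± 3.41, Spag6 with 35.2 ± 4.69, Spef1 with 22.1 ± 1.48, Spef2 with 13.9 ± 0.425 and Hydin with 13.2 ± 1.69. The neighbours Spag16 and Spag17 overlapped, as did Spef2 and Hydin, while the other neighbours did not. With 4 libraries, the exact sign-flip test between neighbours cannot go below a two-sided p of 0.125. In the libraries labelled Tmem232-/-, Spag6 reached 62.6 ± 7.85 FPKM (SD, n = 4), where it overlapped Spag17 with 66.5 ± 6.78 and Spag16 with 62.6 ± 5.68. The FPKM of Spag6l were 3.82 ± 0.571 times those of Spag6 in these libraries and 7.11 ± 0.888 times in the others (SD, n = 4; exact permutation test, two-sided p = 0.029).

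**Figure D4:**
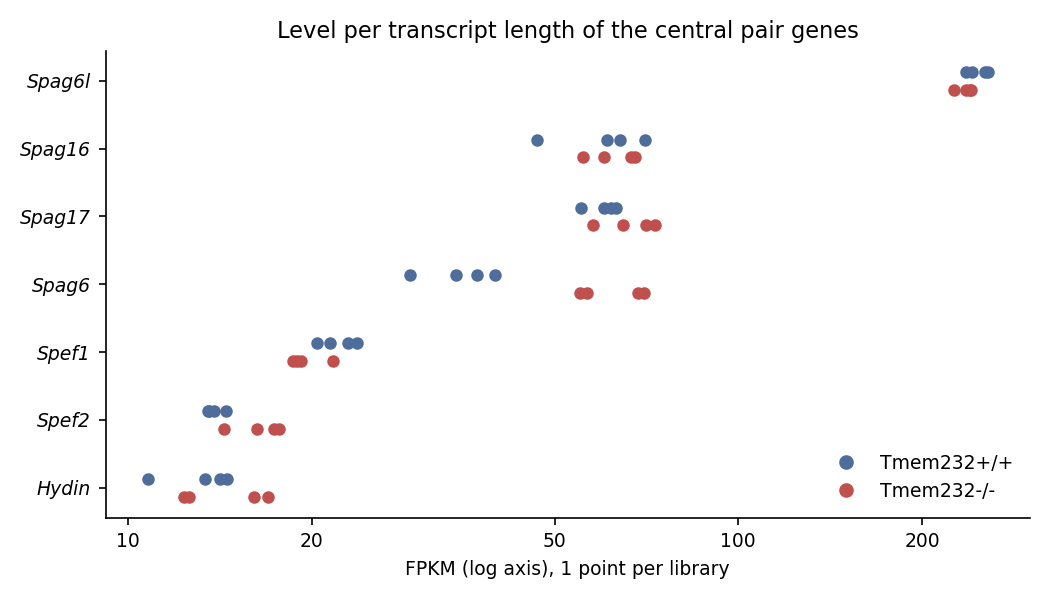
FPKM of the 7 members (horizontal log axis) with 1 point per library, blue for Tmem232+/+ and red for libraries labelled Tmem232-/-. Spag6l lies above 225 FPKM in all 8 libraries, and Spag6 between 29.0 and 39.9 FPKM in the blue points and between 55.1 and 70.1 FPKM in the red ones.

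Hydin, Spag16 and Spag17 shared part of a pattern across libraries that did not follow genotype and was noticed in the values themselves. In log2 CPM minus the mean of the 8 libraries, replicate 3 labelled Tmem232+/+ was the lowest of the 8 for each, at -0.38 for Hydin, -0.53 for Spag16 and -0.22 for Spag17. Replicate 4 labelled Tmem232-/- was the second lowest for each, at -0.18, -0.11 and -0.15, and replicates 2 and 3 of that label were high, between 0.19 and 0.33. In replicate 1 labelled Tmem232+/+ they differed, since Spag16 had its highest value there, at 0.28, while Hydin stood at 0.07 and Spag17 at 0.03. Spef2 was also lowest in replicate 3 labelled Tmem232+/+, at -0.18. The members differ in transcript length. The longest coding transcripts were 15783 bases for Hydin, 7862 for Spag17, 7038 for Spef2 and 3559 for Spag16, against 2600 for Spef1, 2458 for Spag6 and 2416 for Spag6l. A set of 1224 tested genes had at least 1 CPM in every library and a transcript of at least 7000 bases. Their median was -0.15 in replicate 3 labelled Tmem232+/+ and -0.10 in replicate 4 labelled Tmem232-/-. Over 12533 other genes with at least 1 CPM in every library, the medians there were 0.01 and 0.00. The long genes differed from this pattern in replicate 2 labelled Tmem232+/+, where their median was highest, at 0.11, while Hydin stood at 0.04, Spag16 at -0.0045 and Spag17 at -0.07. Spag16, with the lowest value among Hydin, Spag16 and Spag17, is below 7000 bases. The part of transcript length in the members' values was not tested.

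**Figure D5:**
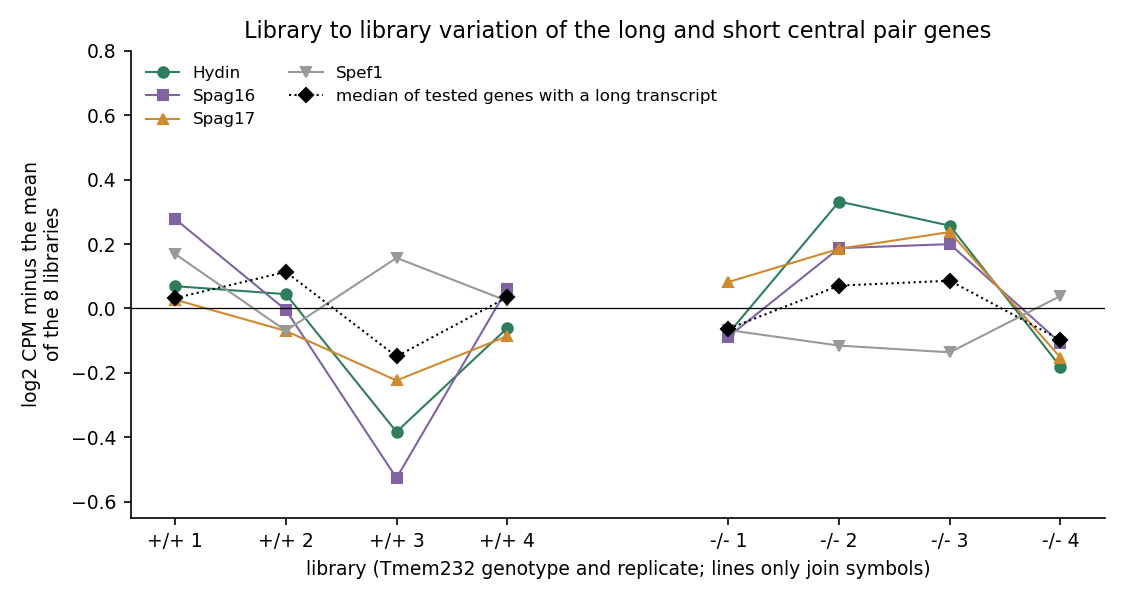
Log2 CPM minus the mean of the 8 libraries (vertical axis) for Hydin, Spag16, Spag17 and Spef1, by library (horizontal axis). Also shown is the median of 1224 genes with at least 1 CPM in every library and a transcript of at least 7000 bases. Hydin, Spag16, Spag17 and this median are lowest in replicate 3 labelled Tmem232+/+, where Spef1 stands at 0.16.

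Other genes of the central apparatus were described from a list of 17, all of them in the table, of which 16 were tested. The one left out, Gm7173 (Cfap47), had at most 8 counts in any library. In edgeR, 3 of 16 were higher and 0 lower in the libraries labelled Tmem232-/-, with 10 of 16 log2 fold changes above 0 and a median of 0.05 (0.0035 to 0.10 without 1 library). Over all tested genes 10.3% were higher, and at this list size the count is not a result about the list. Mycbpap, which encodes a partner of the MYC binding protein MYCBP, had 207, 199, 178 and 171 CPM against 139, 127, 142 and 138 CPM, with no overlap (log2 fold change 0.47, SE 0.077, adjusted p = 0.0016). Stk36, a kinase needed to build the central pair, had 131, 151, 138 and 121 CPM against 106, 99.2, 89.8 and 108 CPM, also without overlap (0.43, SE 0.085, adjusted p = 0.0052). Cfap221, a C1 projection gene, showed 0.25 (SE 0.063, adjusted p = 0.021). The call of Cfap221 was lost in 5 of 17 alternatives, and 0 of the 3 reached a fold of 1.5. DESeq2 called 4 of the list higher and 0 lower.

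The radial spokes face the central pair. Of 15 listed radial spoke genes, 12 were matched in the table and 11 were tested, and 2 were higher and 0 lower, with a median log2 fold change of 0.22 (0.13 to 0.24 without 1 library). This count too stands beside 10.3% higher over all tested genes, and nothing is read from it for the spokes as a group. The most abundant were Rsph1, a spoke head gene, with -0.20 (SE 0.12, adjusted p = 0.31 in edgeR), and Cfap206, which anchors a spoke, with 0.24 (SE 0.099, adjusted p = 0.15). Without replicate 3 labelled Tmem232+/+, Rsph1 stood at -0.05, and without replicate 4 labelled Tmem232-/-, Cfap206 stood at 0.33 with an adjusted p of 0.027 in edgeR. The higher genes, named after their values had been seen, were Dnajb13, a spoke chaperone, with 0.58 (SE 0.13, adjusted p = 0.0098 in edgeR), and Iqub with 0.48 (SE 0.11, adjusted p = 0.015, and 0.054 without replicate 2 labelled Tmem232-/-).

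The genes most like Spag6 across the 8 libraries were sought among 12132 tested genes with a mean of at least 5 CPM, by the root mean square difference in centred log2 CPM. Gm20747 came first with a difference of 0.030, with 38.7, 36.1, 31.4 and 29.5 CPM in the libraries labelled Tmem232-/- and 18.3, 14.8, 20.6 and 20.8 CPM in the others. Spatc1l followed with 0.045, with 67.4, 63.2, 52.2 and 51.6 CPM against 33.1, 26.9, 33.7 and 34.2 CPM.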

How the data were processed

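Members and gene lists were chosen with earlier results of these data known. The authors sequenced TruSeq libraries in pairs of reads, and per the labels used HISAT, Bowtie2, StringTie, featureCounts and DESeq2 with GRCm38.p6, whose versions are not given in the sources used here. The deposited estimated counts carry no normalization, and 10.7% to 11.2% of genes per library had counts that were not exactly whole (no tolerance), so they were rounded. The FPKM deposited by the authors are scaled by transcript length and library. The log2 fold change, p-value and q-value columns deposited by the authors hold their own comparison and were not used. Libraries were grouped by label, with 4 per genotype. Counts were tested in R 4.3.3 with edgeR 4.0.16 (default filter, TMM, quasi-likelihood test), with Benjamini-Hochberg adjustment over 15787 genes and a threshold of 0.05, after tests on simulated data. Python 3.11.15 with scipy 1.17.1 gave the exact permutation tests of CPM. Named were all members, Tmem232, called central apparatus genes, at most 2 genes of highest CPM in other lists, and the 2 most like a called member, while Dnajb13, Iqub, Prm2 and Gm7173 were named after their values had been seen. Alternatives were DESeq2 1.42.0, its size factors, library size alone, limma 3.58.1 (voom, and FPKM with a pseudocount of 1 or 0.1), no filter or at least 10 counts in every library, the replicate number as a block, a fold of 1.5, the summed paralogs, and each library left out. Sequences came from RefSeq and GENCODE tables. Proteins were not analysed here. A gene of the central apparatus list is not reported here.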

Additional observations from a re-analysis of the deposited data

Results flagged for a closer look

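The screen covered 44 groups of 4 libraries, from most of the named genes and from the share of Spag6 in its pair. Prm2, Gm7173, Gm20747 and Spatc1l were left out of it. In 2 groups, the gap of a library to the nearest other took up most of the range of its group. Chance gives about 1 in 20, or 2.2. For Cfap221, replicate 1 labelled Tmem232+/+ had 41.6 CPM, while the other 3 of its group lay between 39.6 and 39.8 CPM, and all 4 were below the libraries labelled Tmem232-/-. For Acr, replicate 1 labelled Tmem232-/- had 231 CPM, and the other 3 lay between 202 and 205 CPM. None of the flagged groups belonged to a central pair member.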

How the results depend on the processing

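The call of Spag6 held in the 17 alternatives that counted it apart from Spag6l, with log2 fold changes of 0.77 to 0.94 when a library was left out. The sum of both genes, mostly Spag6l, was not called (0.074, adjusted p = 0.51 in edgeR), which does not bear on Spag6 alone. Spef2 passed the threshold with DESeq2 (0.28), with its size factors in edgeR (0.28) and without the filter (0.30), and lay between 0.22 and 0.33 without 1 library. Spag6l, near 0, changed sign without the filter (0.0088), without replicate 1 or 3 labelled Tmem232+/+ (0.038 and 0.0044, range -0.065 to 0.038) and in the sum (0.074). Spag16 ranged from -0.029 (without replicate 3 labelled Tmem232+/+) to 0.23 and Spag17 from 0.13 to 0.27. Members called were 2 with DESeq2, its size factors or no filter, and 1 to 3 without a library (3 without replicate 4 labelled Tmem232-/-). Of the other central apparatus genes 3 were called, 2 to 4 without a library (2 when the library was replicate 1 or 2 of Tmem232-/-, or 2 or 4 of Tmem232+/+), 0 at a fold of 1.5, and 2 with the replicate block. The replicate numbers did not pair the samples, since libraries of the same number correlated at -0.33 to 0.07, and the block left 1 member called (Spag6), with 1317 higher and 28 lower genes in all. The median of all genes moved from -0.054 with TMM to -0.087 with library size alone. The call of Tmem232 was lost in 5 of 17 alternatives, with log2 fold changes of 0.21 to 0.32 over all 17. The cause of these changes was not tested. Members had at least 624 counts in every library, and the precision also rests on 4 mice per genotype.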
